A study of Mus musculus with 21 samples.

Results

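The experiment set 4 Rbm10 knockout clones of mandibular arch cells against wild-type (WT) samples of the same line, 7 of the 21 samples of the series. The members were chosen by their labels alone. Clones KO1 and KO2 carry a CRISPR/Cas9 deletion in exon 3 of Rbm10, clones KO3 and KO4 a deletion in exon 9, and the 3 WT samples are unedited. All 7 come from the md MEPA line, derived from the mandibular pharyngeal arch of mouse embryos at 11.5 days post coitum. The dams were CD1 and the sire an Immortomouse, a strain whose cells carry a temperature-sensitive viral large T antigen under an interferon-inducible promoter. Clones and controls alike were grown at 33 °C with 100 U/ml murine interferon, so every group shares the immortalizing allele and the cytokine. Each clone is 1 line with 1 library, and no label says that the WT samples were separate cultures, so the WT spread may be technical.

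RBM10 is an X-linked nuclear protein that binds pre-mRNA near splice sites and is best known for promoting the skipping of alternative exons. In humans its loss causes TARP syndrome, whose features include a cleft palate and a small jaw, structures that arise in part from the pharyngeal arches. The question of the comparison is what the polyadenylated RNA of arch cells looks like without the protein. Values are TPM, a transcript's share of its library scaled for transcript length, and the TPM of a gene is the sum over its transcripts. A gene is said to have separate groups when every clone lies on the same side of every WT sample. "Rose" and "fell" are kept for genes that passed limma at a Benjamini-Hochberg adjusted p under 0.05 over all 12090 genes tested, and differences are on the log2(TPM + 1) scale, which understates those of low genes.

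Rbm10 itself (ENSMUSG00000031060.9, X:20194629-20228027, plus strand, mm9) did not separate the groups. Its level was 23.2 TPM in KO1 and 19.7 in KO2, and 7.20 in KO3 and 3.49 in KO4, against 21.4, 23.2 and 23.7 in WT. The exon 9 clones lay below every other sample, while KO1 lay within the WT range. The difference over all clones was -1.03 (SE 0.56, limma adjusted p = 0.762). The transcript with 23 exons, ENSMUST00000084383, had 18.8, 15.4, 4.49 and 2.55 TPM in KO1 to KO4 and 18.1, 20.1 and 20.7 in WT. The one with 22 exons, ENSMUST00000082089, had 3.87, 3.46, 1.98 and 0.574 TPM in the clones and 2.66, 2.10 and 2.40 in WT. The 22-exon form therefore took a larger share of the Rbm10 TPM in every clone, at 16.7, 17.6, 27.5 and 16.4%, than in any WT sample, at 12.4, 9.02 and 10.1%. Transcript TPM does not show the edited bases, so these values check the labels of the exon 3 clones neither way.

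The label of arch mesenchyme held in part. Of 37 annotated arch identity genes, 12 were listed at 0 in all 7 libraries and 20 were tested. Among the 20, 4 were separate and higher and 2 separate and lower. The summed level of the 37 was 250 to 492 TPM in the clones and 258 to 268 in WT. Prrx1, a homeobox gene of limb and face mesenchyme, had 59.4, 65.0, 90.2 and 56.4 TPM in the clones and 47.3, 49.1 and 49.8 in WT. The distal-less gene Dlx2 was also higher in each clone, at 10.8 to 12.8 TPM against 8.72 to 9.51. Msx1, a homeobox gene of the arch, went the other way, at 6.19, 4.23, 0.813 and 3.53 TPM against 6.84, 6.93 and 6.56. Pdgfra, another arch mesenchyme marker, had only 0.0647 to 1.12 TPM in the clones and 0.207 to 0.291 in WT. The marker Dlx5 had at most 0.231 TPM in the clones and 0.0418 in WT. Hand1, Hand2, Gsc, Barx1 and Msx2, which mark parts of the arch in the embryo, were listed at 0 in all 7 libraries. Of markers of other cell types the culture could hold, Epcam, Cdh5, Ptprc, Myod1, Sox10 and Pou5f1 were likewise listed at 0. Other markers of such types were present and differed between clones. The pluripotency gene Sox2 had 7.63, 15.3, 12.4 and 3.25 TPM against 7.67, 7.17 and 7.04, and Nanog 1.66, 1.26, 0.696 and 1.85 against 1.67, 1.48 and 1.70. The neuronal tubulin Tubb3 had 15.5, 21.8, 30.6 and 41.6 TPM against 32.6, 35.4 and 36.4. The keratin Krt14 had 9.25 TPM in KO4, 0.226, 0.154 and 0.0521 in KO1 to KO3, and 0.537, 0.520 and 0.540 in WT. The summed epithelial markers gave 2.88 to 53.7 TPM in the clones and 34.2 to 36.6 in WT, with 8 of 18 at 0 everywhere. Most of that was the keratin Krt19, at 12.6, 24.7, 2.09 and 41.7 TPM against 32.3 to 34.9. Leukocyte marker sums were 12.1 to 21.0 TPM in the clones and 8.74 to 10.6 in WT (5 of 13 at 0), and endothelial sums 14.8 to 29.3 against 14.7 to 16 (9 of 14 at 0). Neural and glial sums were 17.3 to 44.5 against 34.0 to 37.8 TPM (9 of 16 at 0), pluripotency sums 39.4 to 61.8 against 44.7 to 49.5 (7 of 13 at 0), and skeletal muscle sums at most 1.11 (9 of 13 at 0). In such bulk libraries fewer cells of a type and less RNA per cell cannot be told apart, and the part of these markers in the results was not tested.

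Few genes differed in all 4 clones at once by a large step. Of 12090 genes, 2 passed limma (0.0165%), and both fell. In 829 genes the unadjusted p was under 0.05 (6.86%). The groups were separate in 1295 genes (10.7%), of which 765 lay higher (6.33%) and 530 lower (4.38%). Only 4 genes had every clone at least 2-fold from the WT mean with separate groups (0.0331%), and all 4 lay lower. The count depended on the scale and the libraries: with a pseudocount of 0.1 it was 26, of which 16 lay higher, and leaving out a library gave from 2 (without WT2) to 26 (without KO3). The last of the 4, Defb41, had its least changed clone at -1.47, and the gene next outside, Tnfsf18, at -0.95.

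The Y-linked gene Eif2s3y (Y chromosome), which encodes a subunit of translation initiation factor eIF2, was listed at 0 in all 4 clones and at 4.94, 3.14 and 3.39 TPM in WT (limma adjusted p = 0.0112). Other Y-linked genes were lower too, although below the level for testing. The RNA helicase Ddx3y was listed at 0 in every clone and at 1.30, 0.898 and 1.46 TPM in WT. The histone demethylase Uty was at 0 in KO1, KO3 and KO4 and at 0.266 TPM in KO2, against 0.951, 0.925 and 0.627 in WT. Kdm5d had 0.486, 0.141, 0.330 and 0.307 TPM in the clones and 0.583, 0.573 and 0.499 in WT. The X-linked copy Eif2s3x, with which reads may be shared, had 99.9, 122, 132 and 81.9 TPM against 141, 136 and 137. It too lay below WT in each clone (-0.36, adjusted p = 0.738). The 4 clones thus shared low or absent Y-linked RNA, whatever the exon they were edited in.

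The X-linked predicted gene Gm773 (X:53443004-53466058, minus strand, mm9) fell from 4.78, 5.75 and 5.81 TPM in WT to 0.551, 0, 0.136 and 0.185 in KO1 to KO4 (-2.42, SE 0.19, limma adjusted p = 0.0112). Beside it on the plus strand lies 3830403N18Rik (X:53389749-53406675), the third of the 4 genes, with 4.86, 0, 4.13 and 0.138 TPM in the clones and 14.9, 18.2 and 15.2 in WT. It was lower in every clone, and far lower in KO2 and KO4 than in KO1 and KO3 (-2.82, SE 0.67, adjusted p = 0.602). Most neighbours between and around this pair were at or near 0 in every library. The exceptions were Zfp449 and the microRNA gene mmu-mir-1194. Zfp449 had 2.56, 2.65, 2.47 and 2.03 TPM in KO1 to KO4 against 2.56, 2.76 and 2.95 in WT. The microRNA gene had 0.860, 1.30, 0.842 and 0 TPM against 1.35, 0 and 1.17. Defb41 (1:18241061-18255219), a beta-defensin antimicrobial peptide, had 0, 0.153, 0.208 and 0.111 TPM against 1.99, 2.75 and 2.35 (-1.59, SE 0.16, adjusted p = 0.0526). Its neighbours Defb18, Defb44-ps and Crisp4 were listed at 0 in all 7 libraries. Both calls, Eif2s3y and Gm773, depended on the libraries used: leaving out KO1 gave 4 calls and leaving out KO3 gave 3, while leaving out any other clone or any WT sample gave 0. Under the alternatives tried, the adjusted p ranged from 0.0103 to 0.672 for Eif2s3y and from 0.00759 to 0.672 for Gm773.

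Below the 2-fold step, genes were ranked by their least changed clone, a ranking added after the values were seen. It puts first the genes in which even the nearest clone is far from WT, however far apart the clones are. It kept named genes with at least 5 TPM in the higher group, 511 higher and 372 lower, and the 12 at each end are described. None of the 24 passed limma (adjusted p from 0.381 to 0.673, unadjusted p under 0.05 in all 24). On the higher side the clearest was Ift20, a carrier of cargo from the Golgi to the primary cilium. It had 129, 110, 90.6 and 135 TPM in KO1 to KO4 and 49.6, 56.1 and 58.9 in WT (+1.06, SE 0.16, adjusted p = 0.381). The 4 clones lay clear of the 3 WT samples. Dpm1, the enzyme that makes dolichol phosphate mannose for glycosylation, had 60.0, 62.4, 81.0 and 108 TPM against 43.1, 33.5 and 34.1 (+1.03). The aldo-keto reductase Akr1b10 had 31.5, 18.6, 29.5 and 23.9 TPM against 10.5, 14 and 12.2 (+1.00).

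The others on that side included several secreted proteins. The serine protease inhibitor Serpina3g had 10.8, 7.48, 54.0 and 8.97 TPM against 3.00, 4.21 and 3.96, with KO3 far above the other clones. Its relative Serpina3i had 34.8, 18.7, 29.4 and 7.11 TPM against 3.86, 4.91 and 4.34. These 2 are members of a cluster of near-identical genes, so reads may be divided among copies. The monocyte chemokine Ccl7 had 41.9, 56.6, 106 and 50.9 TPM against 31.8, 24.4 and 27.7, the complement protease C1s 7.39 to 12.1 against 3.20 to 5.48, and the raftlin Rftn2 5.48, 8.10, 9.63 and 12.1 against 3.29, 3.30 and 3.29. Hist1h2bc, a histone H2B gene, had 21.0, 27.3, 30.8 and 35.9 TPM against 13.9, 12.6 and 11.4 (+1.11, SE 0.18). Srcrb4d, Uckl1 and Ccdc163 completed the 12, with differences of +0.86 to +0.88.

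**Figure D1:**
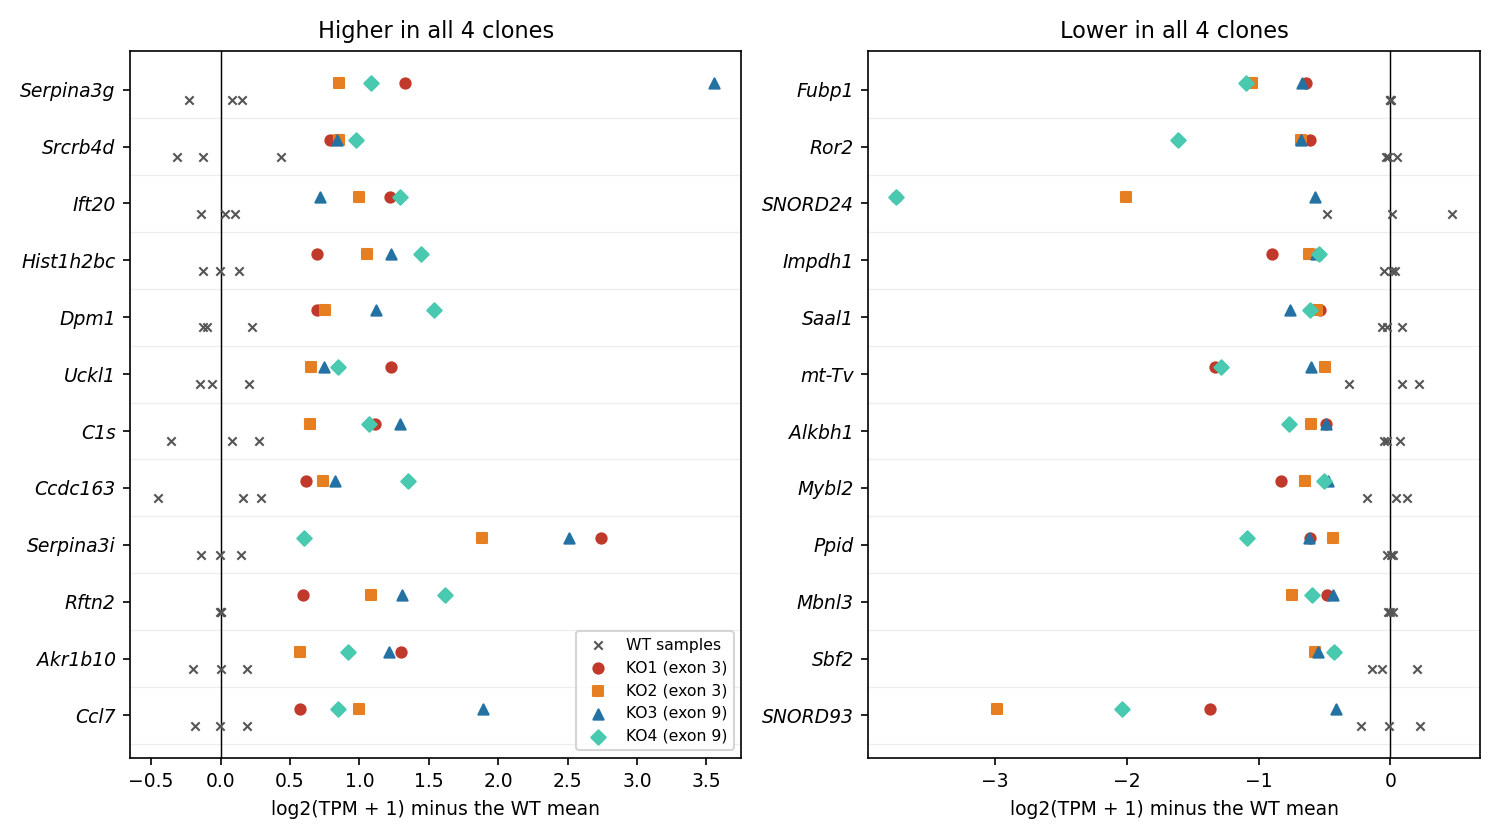
Differences of each library from the WT mean, in log2(TPM + 1), for the 12 higher (left) and 12 lower (right) genes ranked by their least changed clone. Coloured points are the 4 clones and crosses the 3 WT samples. The clones of Ift20 lie close together, while KO3 lies far above the other clones in Serpina3g and KO4 below them in Ror2.

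On the lower side the WT samples of several genes were nearly identical. Fubp1, a single-stranded DNA and RNA-binding regulator of Myc, had 75.0, 75.2 and 75.3 TPM in WT and 47.9, 35.7, 46.8 and 34.6 in the clones (-0.87, SE 0.15, limma adjusted p = 0.456). The receptor tyrosine kinase Ror2, which binds Wnt5a and is needed for skeletal growth, had 3.45, 3.25, 3.25 and 1.22 TPM against 6.03, 5.65 and 5.72 (-0.90). Impdh1, an enzyme of guanine nucleotide synthesis, had 48.7, 59.5, 61.7 and 62.6 TPM against 94, 92.3 and 88.5 (-0.65). The proliferation-linked transcription factor Mybl2 had 48.9, 55.6, 62.8 and 61.6 TPM against 96.0, 90.5 and 77.6, so its clones stayed under the lowest WT sample. The cyclophilin Ppid had 111, 126, 111 and 79.7 TPM against 168, 171 and 173. Mbnl3, a splicing regulator of the muscleblind family, had 4.78 to 6.20 TPM against 8.59 to 8.85. Saal1 (9.93 to 11.8 against 16.7 to 18.6 TPM), the dioxygenase Alkbh1 (6.51 to 8.13 against 11.4 to 12.5) and Sbf2 (10.5 to 11.7 against 14.5 to 18.7) had clones close to one another. The other 3 are the small RNAs SNORD24, SNORD93 and mt-Tv, which libraries of polyadenylated RNA are not made to capture.

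Gene lists describe where separate groups gathered. They are set beside all genes tested, in which 6304 of 12090 lay above 0, the median difference was +0.01, and 6.33% were separate and higher and 4.38% separate and lower. Members of the interferon response and of antigen presentation lay mostly higher. Of 59 tested, 57 lay above 0, 11 were separate and higher, 0 separate and lower, and the median was +0.36. Ifit3, an antiviral protein, had 11.1, 9.39, 2.75 and 8.84 TPM in KO1 to KO4 against 1.52, 1.73 and 2.18. Ifit2 had 18, 16.8, 13.1 and 17.2 TPM against 11.1, 10.7 and 11.4, and the class I antigen-presenting molecule H2-D1 had 1512, 2592, 2123 and 2134 TPM against 1205, 1309 and 1309. The clones differed in this list: its median was +0.74 in KO1, +0.60 in KO2 and +0.36 in KO4, but -0.21 in KO3. Medium with interferon was given to all 7 cultures.

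Targets of the tumour suppressor p53 had 6 of 35 separate and higher and 0 separate and lower, with 23 above 0 and a median of +0.14. Cdkn1a, an inhibitor of cyclin-dependent kinases, had 13.6, 26.1, 18 and 18.7 TPM in the clones and 8.37, 9.64 and 9.46 in WT (+0.95, limma adjusted p = 0.602). Every clone was above every WT sample, and KO2 was the highest. The death receptor Fas had 8.72, 5.25, 6.84 and 7.94 TPM against 4.16, 3.89 and 3.68, and Mdm2, the ubiquitin ligase of p53, 26.6 to 41.4 against 23.4 to 25.9. Of 52 genes of the cell cycle and mitosis, 6 were separate and lower and 2 separate and higher, with a median of -0.07. The mitotic kinase Plk1 had 54.2, 61.7, 53.8 and 52.3 TPM against 76.0, 76.7 and 73.4. Aurka, another mitotic kinase, had 40.5 to 47.6 TPM against 57.2 to 58.7.

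Splicing factors were mostly lower, with 13 of 55 above 0, 6 separate and lower, 2 separate and higher and a median of -0.13. Sf3b3, a subunit of the U2 particle, had 58.8, 73.8, 94.2 and 81.0 TPM against 119, 119 and 121 (-0.65). U2af2, which recognises the polypyrimidine tract before the 3′ splice site, had 141, 143, 147 and 108 TPM against 185, 177 and 174 (-0.42). The hnRNP protein Hnrnpa2b1 had 531, 530, 705 and 523 TPM against 783, 794 and 759, so KO3 was near WT. By clone the list's median was -0.17, -0.02, +0.09 and -0.33 in KO1 to KO4. Among RBM10 and related RNA-binding proteins 2 of 31 were separate and higher, Mbnl2 (18.2 to 36.4 against 15.1 to 17.1 TPM) and the paralog Rbm5 (9.66 to 12.6 against 9.40 to 9.62). Rbm28 was separate and lower, at 85.7 to 95.7 against 100 to 107 TPM. Of 16 reported RBM10 splicing targets 4 were separate and higher and 2 separate and lower. Numb, an inhibitor of Notch whose exon is a known target of RBM10, had 15.0, 15.4, 12.7 and 12.7 TPM in the clones and 11.1, 9.85 and 11.3 in WT (+0.34). These are levels of whole genes and do not show the inclusion of an exon. No exon of Numb was among the cassette exons, described below, with every clone at least 10 points from the WT mean.

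Metabolic and stress genes had separate groups in a few members, by amounts that differed between clones in some. Of 28 genes of glycolysis and hypoxia, 8 lay above 0, 3 were separate and lower and 0 separate and higher. Ldha, lactate dehydrogenase A, had 784.4 to 958.5 TPM against 1067 to 1079. Of 33 genes of cholesterol and fatty acid synthesis, 25 lay above 0 but only 2 were separate and higher, the sterol enzymes Sc5d (49.5 to 55.4 against 40.5 to 44.3 TPM) and Hsd17b7 (22.3 to 32.3 against 18.7 to 20.6). Acaca, which commits acetyl-CoA to fatty acids, was separate and lower (30.4 to 37.1 against 41.7 to 44.4). Of 35 stress and immediate early genes 3 were separate and higher and 1 separate and lower. Hmox1, heme oxygenase, had 63.1, 51.2, 67.9 and 66.2 TPM against 42.8, 41.7 and 41.3. The detoxifying enzyme Nqo1 had 37.5, 78.3, 75.0 and 33.7 TPM against 31.1, 29.5 and 28.4, and its clones differed by more from each other than KO4 did from WT.

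Matrix, adhesion and signalling genes are described beside the 10.7% of all genes with separate groups. None of 18 collagens and 0 of 6 bone and cartilage genes were separate, and the collagen median ran from -0.38 in KO2 to +1.00 in KO4. Of 38 growth factors and receptors only the hepatocyte growth factor receptor Met (23.6 to 34.8 against 35.3 to 40.04 TPM) and the Hedgehog receptor Ptch1 (3.31 to 7.89 against 8.09 to 8.99) were separate, both lower. Of 38 axon guidance and adhesion receptors 2 were separate and higher, the netrin receptor Unc5b (3.65 to 8.29 against 2.81 to 3.20 TPM) and the ephrin Efna5 (4.74 to 7.02 against 3.57 to 4.72), and 1 separate and lower. Of 24 matrix glycoproteins Loxl3 and Matn2 were separate and higher and the hyaluronan synthase Has2 separate and lower (7.06 to 13.5 against 14.5 to 16.8). Of 17 chemokines and cytokines 1 was separate, Ccl7, while the list's median was 0.00, +0.73, +1.10 and -0.25 in KO1 to KO4. Of the remaining lists, 2 of 24 histone, 2 of 18 matrix protease and inhibitor, 2 of 21 Notch, 1 of 6 imprinted and 1 of 4 leukocyte genes were separate and higher. Of 23 contractile genes 1 was separate and lower, and of 14 genes beside Rbm10 1, Uba1 (140.1 to 203 against 214 to 224 TPM). None of the tested epithelial, endothelial, neural or pluripotency markers was separate.

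**Figure D2:**
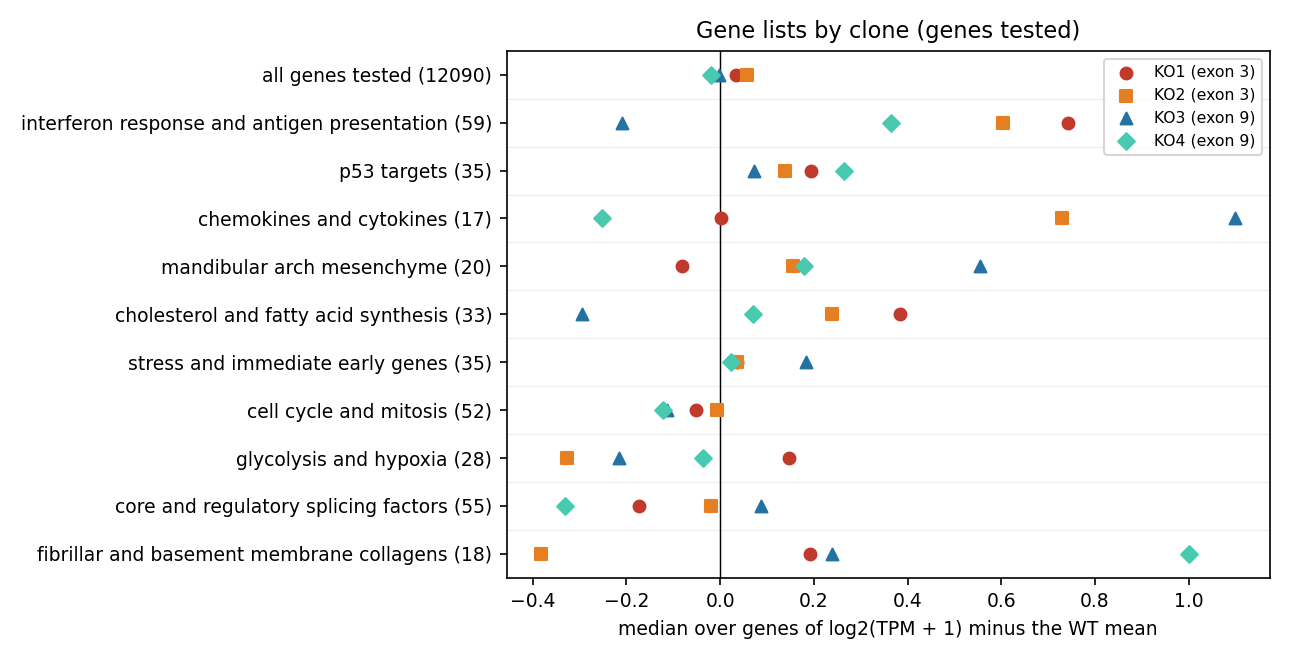
Median difference of each gene list from the WT mean, in log2(TPM + 1), drawn separately for the 4 clones, with the number of genes tested in brackets. The interferon list is high in KO1, KO2 and KO4 and below 0 in KO3, while all genes tested lie close to 0 in every clone.

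The clones differed from one another more than the WT samples did. The median over genes of the SD of log2(TPM + 1) was 0.294 among clones and 0.0747 among WT samples. Genes at least 2-fold from the WT mean and outside the WT range numbered 587 in KO1 (4.86%), 427 in KO2 (3.53%), 718 in KO3 (5.94%) and 675 in KO4 (5.58%). For each WT sample against the other two the same count was 57 in WT1 (0.471%), 81 in WT2 (0.67%) and 67 in WT3 (0.554%). At 2-fold from the WT mean lay 1129 genes in exactly 1 clone, 368 in 2, 143 in 3 and 47 in all 4. Of these 47, 43 had clones on both sides of WT. In all, 246 genes (2.03%) had a clone at least 2-fold above and another at least 2-fold below.

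Among the 10 genes most spread in this way, the progenitor surface protein Cd34 had 0.151 and 0.628 TPM in the exon 3 clones KO1 and KO2 and 234 and 190 in the exon 9 clones KO3 and KO4, against 37.7, 45.8 and 48.1 in WT. The same split held for Serpinf1, the antiangiogenic factor PEDF (8.61, 3.84, 387 and 557 TPM against 53.2 to 63.3), and for the matrix proteoglycan Bgn (2.75, 3.29, 318 and 227 against 66.3 to 80.6). With 2 clones an exon, the exon of the deletion and the clone cannot be told apart. Other genes were high in 1 clone. Spp1, osteopontin, had 13.9, 68.5, 1572 and 34.4 TPM against 110.5 to 164.6, and Prl2c2, proliferin, 24.6, 194, 1396 and 17.2 against 100.9 to 143.7. The cornified envelope gene Sprr1b had 4.11, 241, 0.134 and 1.35 TPM against 4.62 to 6.19, and the growth factor Ptn 1.97, 0, 7.43 and 166 against 7.26 to 8.63.

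**Figure D3:**
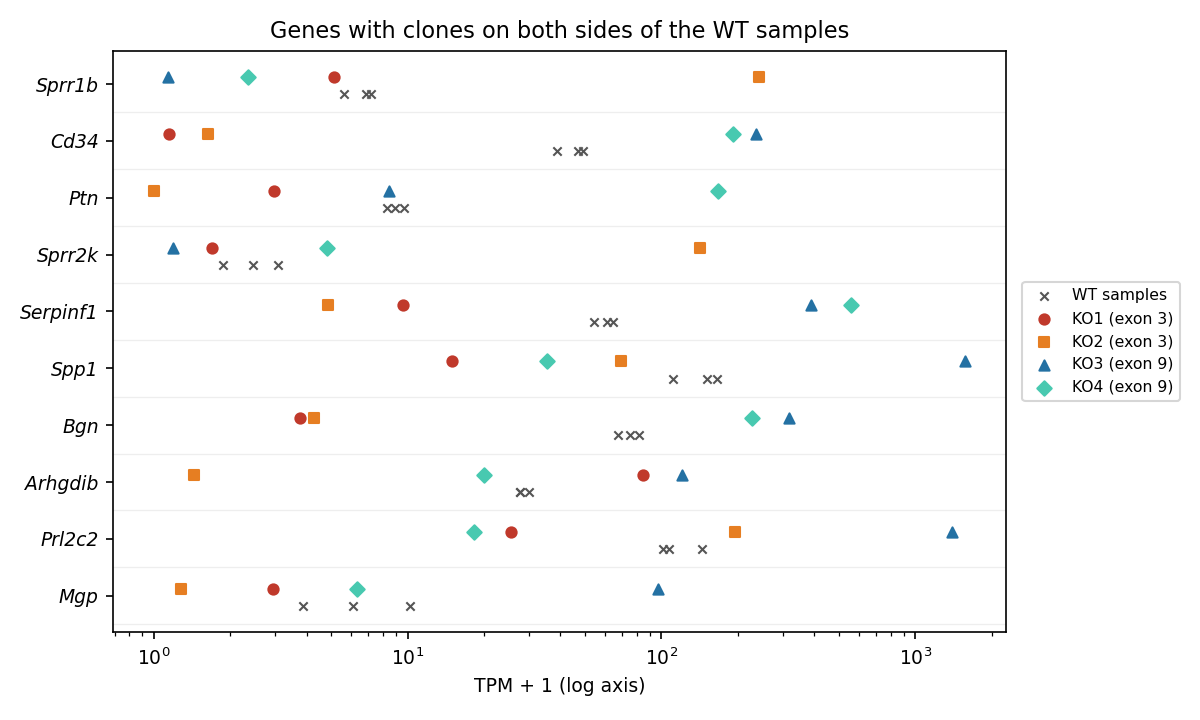
TPM + 1 on a log axis in each library for the 10 genes with the widest spread of clones to both sides of WT. Coloured points are the 4 clones and crosses the 3 WT samples. Cd34, Serpinf1 and Bgn are low in KO1 and KO2 and high in KO3 and KO4, while Spp1, Prl2c2 and Mgp are highest in KO3.

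Some genes left WT in a single clone, the other 3 staying within 2-fold of the WT mean. There were 165 such genes higher and 93 lower in KO1, 84 and 83 in KO2, 161 and 205 in KO3, and 155 and 183 in KO4. In KO3 they included the FGF receptor Fgfr1 (62.2 TPM against 5.72 to 6.57 in WT and 2.58 to 10.7 in the other clones) and the ERK phosphatase Dusp6 (21.6 against 0.754 to 1.12 in WT). KO3 had 0.402 TPM of the GTPase Rab12 against 21.3 to 22.7 in WT. KO1 alone was high in the matrix protein Tgfbi (73.0 TPM against 8.6 to 15.2). KO2 alone was low in cyclin D2, Ccnd2 (1.87 against 21.5 to 22.9), and KO4 alone was high in the RNA sensor Dhx58 (21.3 against 2.32 to 4.83).

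The share of each gene's TPM held by each transcript was compared next, since splicing can change with gene TPM unmoved. Of 18725 shares in 6068 genes 0 passed limma (lowest adjusted p = 0.183), and 1479 had an unadjusted p under 0.05 (7.9%). Groups were separate in 1686 shares (9%). In 105 shares of 82 genes every clone was at least 10 percentage points from the WT mean with separate groups (0.561%), 51 higher (0.272%) and 54 lower (0.288%). This count was 50 when each library had to reach 5 TPM, and leaving out a library gave from 136 (without WT1) to 236 (without KO3), with 174 without WT2, 222 without WT3 and 212 to 224 without another clone. The member just inside that limit was a Mycbp transcript at -10.05 points and the one just outside a Zscan22 transcript at +9.99. By kind of transcript, 68.6% of the 51 and 66.7% of the 54 were protein-coding, against 66.3% of all tested. Retained-intron transcripts were 5.88% and 9.26%, against 10.3%, and those annotated for nonsense-mediated decay 1.96% (1 of 51) and 5.56% (3 of 54), against 6.71%.

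Several of the largest shifts exchanged 2 coding forms. Epb4.1l3, a band 4.1 protein that links membrane proteins to the actin skeleton, divided its TPM between 2 transcripts of 22 exons. One carries an exon of 36 nt (17:69623222-69623257) and the other, in its place, an exon of 66 nt (17:69623441-69623506), both on the plus strand in mm9. The form with the 36-nt exon held 67.9, 68.4, 74.3 and 74.4% in KO1 to KO4 and 41.5, 49.3 and 52.1% in WT (+23.6 points, SE 3.2, limma adjusted p = 0.214). Within 100 nt downstream of the 36-nt exon the 4 RBM10 iCLIP libraries of WT md cells held 77 crosslinks and the 4 IgG libraries 2, and within 100 nt upstream of the 66-nt exon 49 and 2. These 2 windows overlap between the exons, so some crosslinks may be counted in both. The outer windows held 21 RBM10 and 0 IgG crosslinks before the 36-nt exon, and 11 and 4 after the 66-nt exon. The RBM10 libraries were deeper, at 7582304 against 3440608 crosslinks. The 2 exons, in capitals, are shown with the 40 nt before and 20 nt after them because the shorter one held a larger share in every clone than in any WT sample.
Epb4.1l3 36-nt exon: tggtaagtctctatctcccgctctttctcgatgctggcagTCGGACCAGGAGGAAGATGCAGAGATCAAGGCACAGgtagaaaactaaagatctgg
Epb4.1l3 66-nt exon: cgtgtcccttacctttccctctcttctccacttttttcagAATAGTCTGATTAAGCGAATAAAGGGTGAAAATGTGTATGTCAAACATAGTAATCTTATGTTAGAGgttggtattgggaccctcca

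Glyr1, a chromatin-associated protein, had the lowest p of the shares named. Its form with an exon of 111 nt (16:5021431-5021541, minus strand) held 57.5, 60.6, 58.2 and 60.8% in the clones and 42.1, 43.5 and 41.6% in WT (+16.9 points, SE 1.9, limma adjusted p = 0.183), and the form with 93 nt of that exon held the rest. The 4 clones lay within a few points of each other, as did the WT samples. Wasf1, the actin regulator WAVE1, favoured the form that starts from another 5′ exon, at 75.6, 73.8, 85.5 and 73.2% against 60.9, 49.8 and 51.8%. Pphln1, periphilin, gave 25.8, 29.7, 26.1 and 41.1% to a form without a 207-nt exon (15:93250715-93250921), which held 5.22, 0.223 and 9.69% in WT. Clspn, the checkpoint adaptor claspin, had 74.5, 73.6, 80.5 and 74.0% in its 26-exon form, against 49.3, 58.6 and 63.0%. The TPM of that form was not higher, at 15.1, 16.7, 15.5 and 16.8 in the clones and 16.9, 16.7 and 16.7 in WT. The TPM of the gene was lower, at 20.3, 22.7, 19.3 and 22.7 against 34.4, 28.5 and 26.5.

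Other forms held a smaller share in every clone. The 5-exon form of Ap1s2, an adaptor subunit of clathrin coats, held 50.2, 49.7, 49.9 and 47.6% in the clones and 65.1, 64.2 and 71.9% in WT. A Cyth1 transcript held 8.61, 15.4, 0 and 0% against 30.1, 32.1 and 29.8%, and the noncoding Trim2 form 0, 0, 0 and 2.08% against 32.4, 26.3 and 14.7%. The main form of Slc10a3 held 52.4 to 61.7% against 69.6 to 86.7%. A Stab1 form came out of the same rule through 1 library alone: it held 100% in WT2, 0.988 and 1.12% in the other WT samples and 0% in each clone. A retained-intron form of Palm2 (67.7 to 79.9 against 31.4 to 59.6%) and a Per1 form (34.5 to 48.6 against 13.3 to 23.6%) were higher, and the Zfp707 form named was lower (30.3 to 38.4 against 44.2 to 63.2%).

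Cassette exons give the same data by exon. Percent spliced in (PSI) is the share of TPM from transcripts that include an exon among those that include or skip it. Of 4150 exons 0 passed limma (lowest adjusted p = 0.121) and 373 had an unadjusted p under 0.05 (8.99%). Groups were separate in 434 (10.5%). In 48 every clone was at least 10 points from the WT mean with separate groups (1.16%), 29 with higher inclusion in the clones (0.699%) and 19 with lower (0.458%). It was 19 when each library had to reach 5 TPM, and leaving out a library gave 58 (without WT1) to 91 (without KO1), with 80 to 89 without another clone and 68 without WT2. The balance turned without WT3, which left 33 higher and 40 lower. The limit fell between a Dtnb exon at -10.1 and an Rps6ka3 exon at +9.97. The depth behind a PSI is unknown, and a PSI of 0 or 100 says only that no TPM was listed for the other form.

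**Figure D4:**
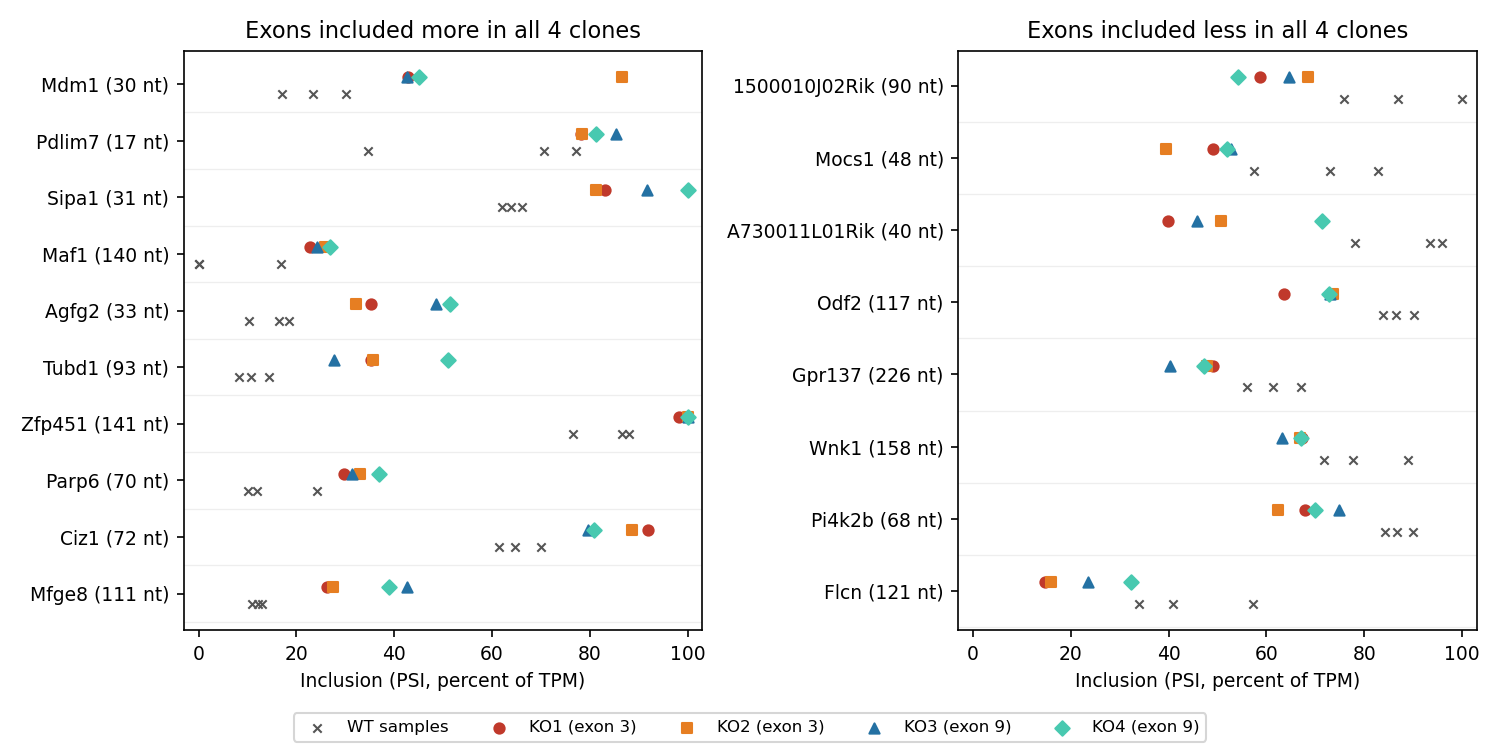
Percent spliced in of named cassette exons in each md library, for exons higher (left) and lower (right) in all 4 clones, with exon length in nucleotides. Coloured points are the clones and crosses the WT samples. Tubd1, Agfg2 and Mfge8 show a gap between the groups, while Pdlim7 and Maf1 have a WT sample close to the clones.

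Exons included more in the clones came from genes of varied function. Agfg2, an Arf GTPase-activating-like protein, included a 33-nt exon at 35.3, 32.2, 48.6 and 51.4% in KO1 to KO4 and 18.4, 10.3 and 16.4% in WT (+26.8 points, SE 5.3, limma adjusted p = 0.196). Tubd1, delta-tubulin of the centriole, included a 93-nt exon at 35.2, 35.8, 27.7 and 51% against 14.4, 8.36 and 10.8% (+26.2, SE 5.2, adjusted p = 0.196). In both, the lowest clone was well above the highest WT sample. Parp6, an ADP-ribosyltransferase, included a 70-nt exon at 29.8, 33.1, 31.4 and 36.9% against 11.9, 10.0 and 24.3% (+17.4). Mfge8, a secreted bridge between apoptotic cells and phagocytes, included a 111-nt exon at 26.4, 27.5, 42.7 and 39.0% against 12.2, 13.0 and 10.9% (+21.8, SE 4.3, adjusted p = 0.196). The exon 9 clones were the higher for this exon. Ciz1, a nuclear matrix protein linked to DNA replication, included a 72-nt exon at 91.9, 88.7, 79.6 and 80.8% against 61.4, 69.98 and 64.8% (+19.9, SE 3.8, adjusted p = 0.196), and here the exon 3 clones were the higher. Mfge8 and Ciz1 were named after their values were seen. These 5 exons are printed in capitals with flanks as above, in the direction of transcription. They were picked because their inclusion was also higher in Rbm10-deficient embryonic stem cells, as held for 6 exons. The exon of Pdlim7 is the sixth and is not printed, since it differed there by only +1.91 points.
Agfg2 (5:138101390-138101422, minus strand): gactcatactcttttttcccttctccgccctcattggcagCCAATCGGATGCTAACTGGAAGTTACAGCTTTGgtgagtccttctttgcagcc
Tubd1 (11:86370197-86370289, plus strand): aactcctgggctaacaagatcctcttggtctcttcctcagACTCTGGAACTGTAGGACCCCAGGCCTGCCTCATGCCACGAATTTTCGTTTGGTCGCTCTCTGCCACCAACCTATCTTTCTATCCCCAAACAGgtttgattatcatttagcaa
Parp6 (9:59489548-59489617, plus strand): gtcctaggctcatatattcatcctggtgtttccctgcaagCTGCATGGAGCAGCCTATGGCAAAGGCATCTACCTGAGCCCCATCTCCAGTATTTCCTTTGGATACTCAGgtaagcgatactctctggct
Ciz1 (2:32221323-32221394, plus strand): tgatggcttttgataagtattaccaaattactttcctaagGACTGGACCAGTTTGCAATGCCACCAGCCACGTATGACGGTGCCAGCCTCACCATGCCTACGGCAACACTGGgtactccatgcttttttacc
Mfge8 (7:86288164-86288274, minus strand): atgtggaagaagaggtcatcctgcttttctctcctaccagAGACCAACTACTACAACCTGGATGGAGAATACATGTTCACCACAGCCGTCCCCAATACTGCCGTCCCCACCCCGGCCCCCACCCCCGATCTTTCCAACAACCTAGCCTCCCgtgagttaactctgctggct

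In those embryonic stem (ES) cells, 3 samples of a gene trap line were compared with 3 of its parental line. The values of these 5 exons there are a description, since the choice of exons fixed their direction. Tubd1 inclusion was 73.2, 82.7 and 84.9% in the gene trap samples and 11.9, 8.0 and 11.2% in the parental ones, a difference of +69.9 points (limma adjusted p = 0.00463 over all ES exons). Without any 1 of the parental samples the adjusted p was 0.0651 to 0.0702. Agfg2 had 69.0, 70.4 and 64.6% against 24.7, 30.7 and 46.6% (+34.0, adjusted p = 0.0817). Mfge8 had 79.5, 71.3 and 69.8% against 51.2, 44.8 and 51.5% (+24.4, adjusted p = 0.0641), Ciz1 82.4, 87.2 and 85.9% against 53.6, 58.3 and 67.5% (+25.4, adjusted p = 0.0641), and Parp6 76.2, 61.0 and 67.5% against 48.7, 57.3 and 43.6% (+18.4, adjusted p = 0.2). Of the 29 exons higher in md clones 19 could be tested in ES cells, and 6 were separate and higher there and 1 separate and lower. Among all 3757 exons tested in ES cells 11.2% were separate and higher and 10.2% separate and lower. The 1 opposite exon, of the SUMO ligase Zfp451, had 98.3, 100, 100 and 100% in md clones against 88.1, 76.5 and 86.6%, but 63.05, 53.8 and 61.7% in the gene trap samples against 63.07, 75.2 and 68.4%.

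**Figure D5:**
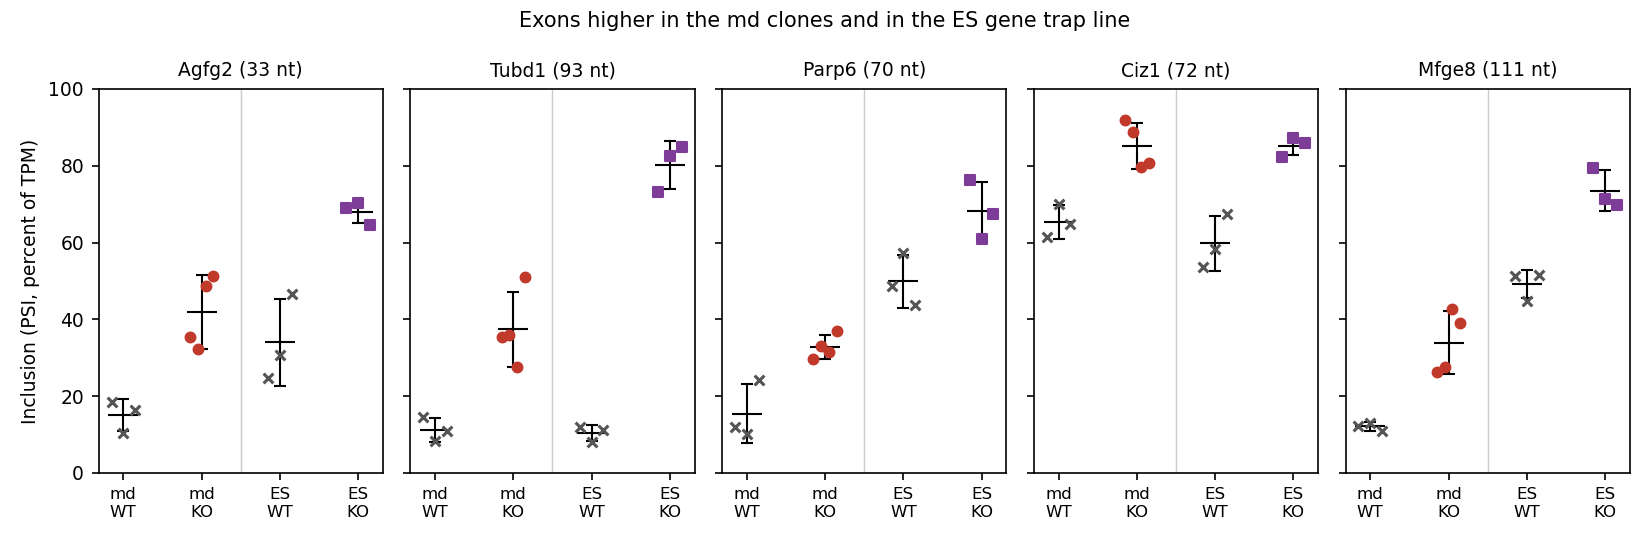
Percent spliced in of 5 cassette exons in md and ES cells. Points are samples, horizontal bars the mean and error bars the SD (n = 4 md clones, 3 in each other group). The exons were picked because every Rbm10-deficient sample lies above every control sample in both cell types, and Tubd1 in ES cells shows the widest gap.

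Crosslinks of RBM10 in WT md cells were dense at some of these exons and sparse at others. Around Mfge8 the 4 RBM10 libraries held 51 crosslinks within 100 nt upstream, 26 in the exon and 58 within 100 nt downstream, and the IgG libraries 0, 1 and 1. Upstream of Ciz1 they held 24 (3, 3, 16 and 2 by library) and IgG 0. Agfg2 had 10 upstream and 8 downstream, with 0 in IgG. Tubd1 had 3 in all, with 0 in IgG, although its inclusion differed the most in ES cells. Over whole gene bodies, RBM10 was called above IgG for Ciz1 (log2 ratio +1.18, edgeR adjusted p = 0.0135) and Parp6 (+1.49, 0.00183). It was not called for Mfge8 (+0.32, 0.301), Agfg2 (+0.30, 0.299) or Tubd1 (+0.76, 0.164). Over the 29 exons 89.7% had an RBM10 crosslink in the exon or within 100 nt, against 94.7% of the 19 and 94.7% of all exons tested, and 48.3%, 52.6% and 69.9% had an IgG one. The chosen windows were not crosslinked more often than those of all exons tested.

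The other exons named as higher were less uniform. Mdm1, a centriolar protein, included a 30-nt exon at 42.8, 86.6, 42.7 and 45.0% against 17.0, 30.1 and 23.4%, with KO2 far above the rest and no crosslink in any window. Sipa1, which inactivates the GTPase Rap1, included a 31-nt exon at 83.1, 81.4, 91.8 and 100% against 63.9, 62.1 and 66.2%. Pdlim7, an actin-associated adaptor, had a 17-nt exon at 78.2 to 85.4% against 70.7, 77.1 and 34.7%, with WT3 far below the other WT samples. Its inclusion in ES cells was 94.5, 93.8 and 94.8% against 93.7, 90.7 and 93.0%, so the groups there were barely separate. Maf1, a repressor of RNA polymerase III, had 22.8 to 26.8% against 16.8, 0 and 0%. Among exons outside the rule for naming, a 141-nt Shf exon had the lowest p, at 13.5, 10.5, 12.6 and 11.8% in the clones and 0% in all WT samples (adjusted p = 0.121).

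The exons included less in the clones numbered 19. 1500010J02Rik had a 90-nt exon at 58.6, 68.4, 64.7 and 54.1% against 76.0, 100 and 87.0% (-26.2 points, SE 6.0, limma adjusted p = 0.276), and it was also separate and lower in ES cells (-9.31). Gpr137, a lysosomal membrane protein, had a 226-nt exon at 49.1, 47.8, 40.2 and 47.3% against 67.0, 56.1 and 61.3% (-15.4), likewise separate and lower in ES cells (-12.4). The lipid kinase Pi4k2b had a 68-nt exon at 67.8, 62.3, 74.8 and 69.9% against 86.6, 89.9 and 84.2% (-18.2). The centriolar appendage protein Odf2 had 63.5, 73.6, 72.9 and 72.8% against 83.9, 86.6 and 90.1%, with 31 RBM10 crosslinks within 100 nt downstream and 0 IgG. The kinase Wnk1 had 63.1 to 67.2% against 71.8 to 88.9%, with 43 RBM10 crosslinks upstream and 0 IgG. By RBM10 library the 43 were 3, 6, 29 and 5. Over the Wnk1 gene body RBM10 was not called above IgG (log2 ratio +0.06, edgeR adjusted p = 0.795). A730011L01Rik (39.8 to 71.4 against 78.0 to 95.8%), Mocs1 (39.4 to 52.7 against 57.4 to 82.8%) and folliculin, Flcn (14.6 to 32.3 against 34.0 to 57.2%), were more scattered. Of the 19, 10 could be tested in ES cells, where 3 were separate and lower and 1 separate and higher.

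Exon length and its divisibility by 3 are set side by side for the 29 and the 19 exons. Exons that are not wholly coding are counted too, and for these divisibility by 3 need not bear on a reading frame. Of the exons included more, 20 of 29 (69.0%) had a length divisible by 3, against 4 of 19 (21.1%) of those included less and 49.4% of all exons tested. Lengths were alike, with medians of 96, 117 and 102 nt, and exons of at most 51 nt were 17.2%, 15.8% and 14.2%. Wholly coding exons made up 72.4%, 52.6% and 62.4%. The 30 nt before the exon held a median of 66.7% pyrimidines in all 3 sets. Some exons share a gene or a transcript, so these shares are descriptions and carry no test.

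Transcript shares were looked up in ES cells too. Of the 51 shares higher in md clones 32 were tested there, and 9 were separate and higher and 0 separate and lower. Of the 54 lower, 35 were tested, 7 separate and lower and 3 separate and higher. Among all 18872 shares tested in ES cells 9.17% were separate and higher and 9.59% separate and lower. The Epb4.1l3 form with the 36-nt exon held 29.3, 52.0 and 58.7% in gene trap samples and 27.1, 17.7 and 21.7% in parental ones (+24.5, limma adjusted p = 0.305). Glyr1 and Wasf1 did not have separate groups in ES cells (+1.83 and -2.32 points).

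Gene levels were looked up in the same ES samples. Of the 765 genes higher in md clones 647 were tested in ES cells, where 16.4% were separate and higher and 16.2% separate and lower. Of the 530 lower, 476 were tested, with 26.3% separate and higher and 12.4% separate and lower. Over the 10558 genes tested in both cell types the shares were 24.8% and 13.3%, so the lower md genes were near the background there. The higher md genes were below it for separate and higher and above it for separate and lower. Ift20, Dpm1 and Akr1b10 were the ranked genes that were higher in both. In ES cells Ift20 differed by +1.02 (limma adjusted p = 0.00354), Akr1b10 by +1.41 (adjusted p = 0.00576) and Dpm1 by +0.55 (adjusted p = 0.0479). The Dpm1 call was lost without any 1 ES sample other than the first gene trap sample (adjusted p from 0.082 to 0.157), with no filter on low values (0.0725) and with quantile scaling (0.0511). Saal1 was separate and lower in both (-0.54, adjusted p = 0.0827).

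Crosslinks per gene body were tested with edgeR between RBM10 and IgG libraries, without pairing each RBM10 library with its own IgG control. Of 9247 genes 19.6% were higher in RBM10 at an adjusted p under 0.05 and 17.4% lower. For the 8701 genes also tested for md TPM these shares were 20.2% and 15.9%. Among md genes higher in the clones 17.5% of 508 were higher in RBM10, and among the lower ones 23.6% of 406. The higher genes had a median WT level of 9.23 TPM and the lower ones 27.1, against 14.1 for all tested, and crosslink counts depend on RNA level. Of the 12 ranked higher 6 had enough crosslinks to be tested. Ift20 (log2 ratio of RBM10 to IgG +1.96, edgeR adjusted p = 0.00315) and Akr1b10 (+1.34, adjusted p = 0.0334) were higher in RBM10 and Hist1h2bc lower (-1.73, adjusted p = 0.00995). Of the 12 ranked lower 11 were tested. Fubp1 (+1.03, adjusted p = 0.00245), Impdh1, Saal1, Mybl2 and Ppid were higher in RBM10, and Ror2 (-1.02, adjusted p = 0.00673), SNORD24 (-1.20) and mt-Tv (-1.66) lower. Leaving out the second IgG library ended the calls of Akr1b10 (adjusted p = 0.152), Saal1, Mybl2, Hist1h2bc, SNORD24 and mt-Tv (0.0531 to 0.134). Leaving out the first RBM10 library also ended that of Akr1b10, the fourth that of SNORD24, and the first IgG library those of Mybl2 and SNORD24. With the replicate number as a block, which pairs each RBM10 library with its control, calls over all genes went from 3414 to 2630. Those of Akr1b10 (edgeR adjusted p = 0.0524) and Saal1 (0.0608) were then lost.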

How the data were processed

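Deposited RNA-seq values are transcript-level TPM from the authors, in a separate table for md and for ES cells, per the file headers. The deposited iCLIP values are crosslink counts for each nucleotide and strand, per the labels. The submitters' processing notes name mm9 and mm10 without a role. Aligner, quantifier and strandedness: not given in the sources used here. RNA-seq depth is unknown. Of 100249 transcripts 84877 (84.7%) joined to GENCODE vM1 (mm9), with 90.3 to 91.5% of md TPM. Gene TPM was summed over joined transcripts. Overlapping genes and near-identical copies may share reads.

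The gene test was limma 3.58.1 in R 4.3.3, 2-sided, with a trended eBayes prior, on log2(TPM + 1) of genes that reached 1 TPM in 3 or more libraries, adjusted by Benjamini-Hochberg. Shares and PSI (from the annotation's exon chains) were tested in percentage points where the mean lay between 5 and 95% and no library fell under 1 TPM. A call needed an adjusted p under 0.05 and, for shares and PSI, 10 points. Crosslinks per gene body were tested with edgeR 4.0.16 (quasi-likelihood, TMM), with DESeq2 1.42.0 as an alternative. Whether barcodes were collapsed is not stated. Groups came from titles. Scripts were tested on simulated data.

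The named genes are Rbm10, called genes, and genes with every clone past 2-fold. They are also the top 10 shares per direction, up to 8 exons, up to 3 separate members per list (all at least 5 TPM) and the highest markers of other cell types. The 2-fold rule left 4 genes, so the ranking of 12 per direction was added after the values were seen. So were the genes with clones on both sides or in a single clone (at least 20 TPM), markers named at 0, Nanog, Pdgfra, Dlx5 and genes described as such. Some genes that these rules select are not reported here by name, though they stay in the fits and list counts. Members and lists were chosen with earlier results of these data known. Alternatives were the pseudocount, filters, quantile scaling, logit scale, replicate block and leaving out each library.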

Additional observations from a re-analysis of the deposited data

Results flagged for a closer look

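Dixon's test was run on the named genes, the 22 named shares and the 18 named exons. In 14 of them 1 of the 4 clones lay far from the other 3. The test flags about 1 group in 20 by chance. That rate does not apply to genes named because a single clone left WT, and Rab12 and Txnip, both flagged, are such genes. The 14 are therefore a description and are not set against that rate. KO4 stood apart in Ror2 (1.22 TPM), U2af2 (107.9), Has2 (7.06), Txnip (48.4) and Uba1 (140.1), and in the shares of Trim2 (2.08%) and Ap1s2 (47.6%). KO3 stood apart in Hnrnpa2b1 (705 TPM), Rab12 (0.402), the Clspn share (80.5%) and Wnk1 exon inclusion (63.1%). KO1 stood apart in the inclusion of the Zfp451 (98.3%) and Odf2 (63.5%) exons, and KO2 in that of the Mdm1 exon (86.6%).

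For 11 named items every md clone lay on one side of WT and every ES gene trap sample on the other side of its parental samples. The difference between cell types was not tested. Opposite groups are common without any selection. Of the 10558 genes tested in both cell types 24.8% were separate and higher in ES cells and 13.3% separate and lower. Of the genes lower in md clones 26.3% were separate and higher in ES cells, which is near that background. Of those higher in md clones 16.2% were separate and lower, above it. The items below are therefore a description. Lower in md clones and higher in ES cells, with the ES log2 difference, were Fubp1 (+0.31), mt-Tv (+0.64), Ppid (+0.61), Rbm28 (+0.41), Has2 (+0.71), Met (+0.47), Plk1 (+0.20) and Aurka (+0.16). Higher in md clones and lower in ES cells were Cdkn1a (-0.74), Mbnl2 (-0.39) and the Zfp451 exon (-9.36 points).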

How the results depend on the processing

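None of the named values changed sign under the alternatives run, but the balance of some counts did. In md cells limma called 0 genes with a pseudocount of 0.1 or a mean of at least 5 TPM, 2 with a pseudocount of 5 or quantile scaling and 6 with no filter; leaving out a library gave 0 to 4. Genes with every clone past 2-fold, 4 in the report, numbered 26 with a pseudocount of 0.1 (16 higher, 10 lower), 1 with a pseudocount of 5 or a mean of at least 5 TPM, 6 with no filter, and 2 to 26 leaving out a library (26 without KO3, 23 without KO1, 18 without KO2, 13 without KO4, 2 without WT2). Fewer clones make the rule easier to meet. Calls of shares and exons, 0 in the report, were 1 and 2 on the logit scale; without a library they were 0 to 3 (shares, 3 without KO2) and 0 to 1 (exons, 1 without KO2). With 5 TPM in every library, which leaves fewer to test, shares past 10 points fell from 105 to 50 and exons from 48 to 19; without a library they were 136 to 236 and 58 to 91 (33 higher and 40 lower without WT3).

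The ES look-up called 1576 genes (968 higher, 608 lower), 774 with no filter, 719 higher and 838 lower with quantile scaling, and 21 to 3985 without a library. ES shares, 9, were 5 on the logit scale, 18 with 5 TPM and 1 to 24 without a library; ES exons, 17, were 30 with 5 TPM, 11 with a mean of 1 TPM and 0 to 12 without a library. Crosslinks called 3414 genes, 1807 to 4026 without a library (2256 without IgG1, 1807 without IgG2). Where the cause is not stated it was not tested.

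With the replicate number as a block md cells gave 0 genes, 0 shares and 0 exons, ES cells 422 genes, 0 shares and 0 exons, and crosslinks 2630 genes. RNA-seq numbers are only names: deviations of same-numbered samples correlated at -0.11, -0.00 and -0.06 in md and 0.16, -0.13 and 0.04 in ES cells. In iCLIP each replicate had its own IgG control, per the design text.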
